A study of Mus musculus with 6 samples.

Results

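Platelet-derived growth factors (PDGFs) and fibroblast growth factors (FGFs) are secreted ligands that act on receptor tyrosine kinases of mesenchymal and epithelial cells. The genes described here are the 4 PDGF ligands (Pdgfa, Pdgfb, Pdgfc and Pdgfd), 3 FGF ligands (Fgf2, Fgf7 and Fgf10) and 3 FGF receptors (Fgfr1, Fgfr2 and Fgfr3), measured in colon tissue with tumors. Members were taken by gene name from the array annotation, with every probe of each gene. These 10 genes had 24 of the 56605 gene probes on the array, and 9 of them were among the 19087 genes bright enough to be tested.

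Ligand binding brings receptors together in pairs, and the phosphorylated receptors pass the signal to the MAPK and PI3K pathways. In the intestine, epithelial and other cells secrete PDGFs that act on stromal cells carrying PDGF receptors. Fgf7 and Fgf10 come from the mesenchyme and act on the epithelial isoform of Fgfr2. Regorafenib (RG), the drug of the study, is a multikinase inhibitor whose known targets include receptors for VEGF, PDGF and FGF.

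All 6 mice were male C57BL/6 animals, bought at 6 to 8 weeks of age, with colitis-associated colon cancer (CAC). The tumors were induced with azoxymethane (AOM, 10 μg per g of body weight) and 2% dextran sulfate sodium (DSS) in drinking water, which both groups received. The RG@M-γ-CD group (3 mice, labelled Rgnanomedicine) was given regorafenib enclosed in mannose-modified γ-cyclodextrin by mouth, at 30 μg of complex per g, equal to 10 μg of RG per g. The PBS group (3 mice, labelled as control) received buffer by the same route. Treatment lasted 21 days and was followed by 14 days of observation. RNA from each mouse was labelled with Cy3 and hybridized to 1 array. The model is an induced tumor in whole colon tissue, without sorting of cells, and no array of the free drug or the empty carrier was analysed here.

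On the 6 arrays, the share of gene probes well above background ran from 49.6% to 55.2%, and no gene spot was saturated. Over the tested genes, RG@M-γ-CD replicate 2 correlated with the other arrays at r = 0.941 to 0.977, and those 5 arrays with each other at r = 0.973 to 0.992. All arrays lay on 1 slide and shared 1 scan. The 3 RG@M-γ-CD arrays and PBS replicate 1 were in the first row of the slide, and PBS replicates 2 and 3 in the second. All 10 colon epithelium markers were well above background on every array, with a mean level between 5.93 and 6.56 on the log2 scale used below. Exocrine pancreas genes were uneven. The trypsinogen gene Prss2 was well above background on the 3 PBS arrays and on 0 of the RG@M-γ-CD arrays, and the mean level of the 4 pancreas genes tested was 2.73 on PBS replicate 2 and between -0.48 and 0.45 elsewhere. The part of that tissue in any member's value was not tested.

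The labels and a supplementary heat map of the study group the arrays in different ways. The columns of that heat map put RG@M-γ-CD replicates 2 and 3 beside PBS replicate 1 (here the first set), and RG@M-γ-CD replicate 1 beside PBS replicates 2 and 3 (the second set), with neither side named as treated. Every comparison below follows the labels unless stated, and each member is also given under the grouping of the heat map. The 2 comparisons use the same 6 arrays and are not independent of each other. The caption of the heat map says that its genes were clustered. If its columns were ordered by clustering too, the 2 sets come from these same values. A split on such an order favors differences between the sets. The p-values and counts given under it are therefore descriptions and do not test the treatment.

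Values are the log2 of the background-corrected spot intensity minus the 75th percentile of all gene probes on that array. A value of 0 is therefore the intensity that 75% of the gene probes fell below. Probes differ in how strongly they bind, so a value can be compared between arrays but not between genes. Differences are RG@M-γ-CD minus PBS on the same log2 scale, and p-values are from limma, adjusted over all genes tested by the Benjamini-Hochberg method. In whole tissue, fewer cells of a type and less RNA per cell cannot be told apart.

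Which bases a probe reads decides what was measured, and several members were seen by some of their probes only. Positions are those of the array annotation (mouse build mm9), and the exon annotation of that build was not used here. The sequences below are those on which a result depends: the second probes of Pdgfa and Fgfr3, and the dim probes of Fgf2 and Fgf10. The first is the further upstream of the Pdgfa probes, at chr5:139455132-139455191 on the minus strand, which was measured on all 6 arrays.

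Pdgfa probe A_51_P370099: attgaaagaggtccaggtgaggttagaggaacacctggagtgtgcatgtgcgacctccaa

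The Fgfr3 probe A_65_P06147, also measured on all 6 arrays, covers 235 bp of chromosome 5 (chr5:34077856-34078090, plus strand) with 60 bases, so its bases come from separate exons. The Fgf2 probe A_51_P399845 covers 47220 bp of chromosome 3 (chr3:37247934-37295153, plus strand) with 60 bases, so it reads spliced Fgf2 RNA.

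Fgfr3 probe A_65_P06147: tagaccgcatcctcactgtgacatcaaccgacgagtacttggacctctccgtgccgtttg

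Fgf2 probe A_51_P399845: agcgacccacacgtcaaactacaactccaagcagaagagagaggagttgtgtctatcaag

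The last pair are the Fgf2 probe at chr3:37303539-37303598 and the Fgf10 probe at chr13:119577931-119577990, neither of which rose well above background on any array. They read related stretches of their genes. Capitals mark the 29 of 60 aligned positions at which the pair hold the same base.

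Fgf2 probe A_52_P376768: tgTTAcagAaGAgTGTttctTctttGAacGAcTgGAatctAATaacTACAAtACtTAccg

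Fgf10 probe A_65_P13771: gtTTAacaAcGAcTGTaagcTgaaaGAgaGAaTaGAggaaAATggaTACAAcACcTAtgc

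Of the 24 probes, 13 were well above background on all 6 arrays, 3 on some arrays and 8 on none. Probes nearer the 3′ end were detected more often. The probe nearest the 3′ end was above background on all 6 arrays in 8 of the 10 genes, against 5 of the other 14 probes. Fgf7 had only 1 probe, which counts as the nearest here. The same shares over all genes of the array were not computed. Where a gene had more than 1 probe and could be tested, the brightest probe was the one furthest toward the 3′ end in 7 of 8 genes. Fgfr1 was the exception: its brightest probe lay 1014 bases upstream of the last, which was above background on PBS replicate 2 and no other array. Fgf10 was measured by a single probe, 2434 bases downstream of the undetected one printed above, and the undetected probes of Fgfr1, Fgfr2, Fgfr3 and Pdgfc all lay upstream of the probe that was used.

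**Figure D1:**
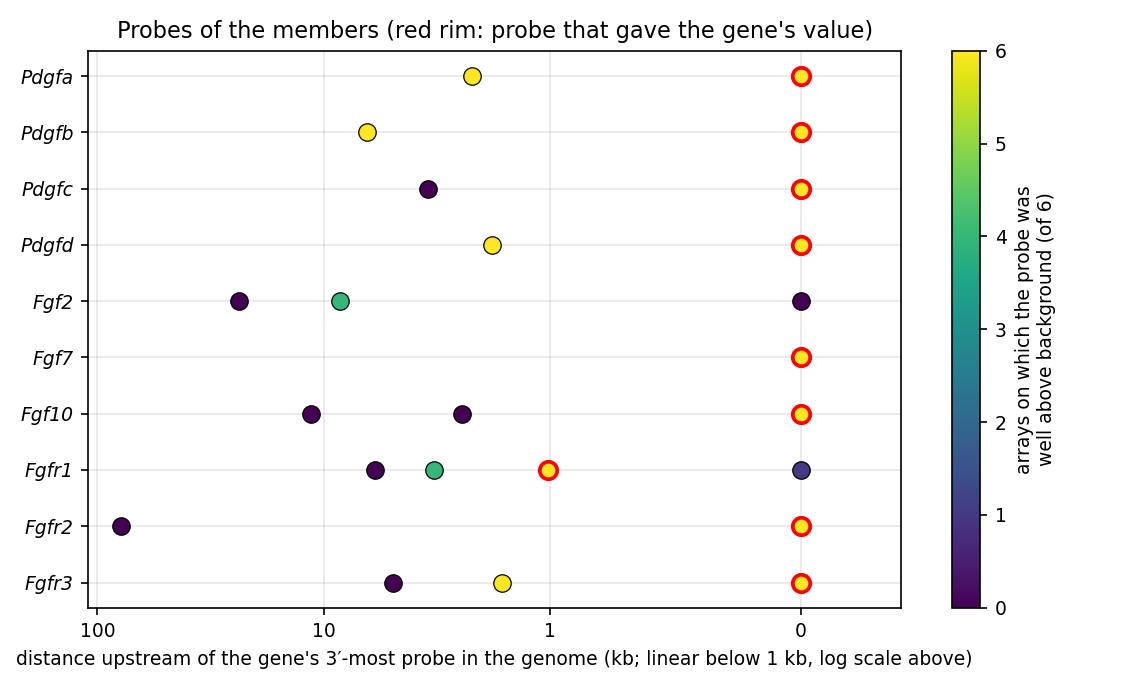
Probes of the 10 members by gene (y axis) and genomic distance upstream of the gene's 3′-most probe (x axis, kb, linear below 1 kb and log scale above), colored by the number of arrays on which the probe was well above background. Red rims mark the probe that gave the gene's value. Of the 10 3′-most probes, which include the only probe of Fgf7, 8 were above background on all 6 arrays, against 5 of the other 14.

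For none of the 9 members tested was the difference between RG@M-γ-CD and PBS larger than the spread between arrays. No member passed an adjusted p of 0.05, as did 0 of the 19087 genes tested (0%). At an unadjusted p of 0.05, 0 members and 419 genes (2.2%) were past the threshold. The arrays of the groups overlapped for all 9 members, while they did not overlap for 4.57% of all genes. The difference was above 0 for 8 members and below 0 for 1, and 47.2% of all genes were above 0. The median difference of the members was 0.13, and that of all genes was -0.01. By probe, 0 of the 13 member probes tested passed an adjusted p of 0.05, as did 0 of 28288 probes (0%), and none of the 13 had an unadjusted p below 0.05, against 1.94% of all probes. With 3 arrays against 3, an exact two-sided permutation test of a single gene cannot give a p below 0.1.

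Pdgfa encodes the A chain, which binds PDGF receptor α. Its probe at chr5:139452934-139452993 (minus strand) read 5.07, 4.45 and 4.54 on RG@M-γ-CD replicates 1 to 3, and 4.41, 4.76 and 4.78 on PBS replicates 1 to 3. The highest array and the second lowest were both RG@M-γ-CD arrays, so the groups overlapped fully. The mean was 4.69 ± 0.33 (SD, n = 3) against 4.65 ± 0.21, a difference of 0.04 (SE 0.22, limma adjusted p = 1.0). The upstream probe printed above gave 1.92, 1.21 and 1.39 against 1.22, 1.56 and 1.53, with a difference of 0.07. Both probes had their highest value on RG@M-γ-CD replicate 1 and low values on RG@M-γ-CD replicate 2 and PBS replicate 1.

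Pdgfb encodes the B chain, which recruits pericytes to vessels through PDGF receptor β. It read 0.90, 1.11 and 0.83 on the RG@M-γ-CD arrays and 1.21, 1.02 and 0.75 on the PBS arrays, from a probe at chr15:79826376-79826435 (minus strand). It was the only member with a lower mean in the RG@M-γ-CD group, by -0.05 (SE 0.18), and it had the narrowest range of the 9, 0.46. A second probe, at chr15:79832821-79832880, gave 0.02, so the sign was not shared between the probes of the gene.

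Pdgfc encodes a ligand that is cut by proteases before it binds PDGF receptor α. Its values were 0.47, -0.73 and -0.21 in the RG@M-γ-CD group and -0.32, -0.20 and -0.33 in the PBS group (chr3:81017844-81017903, plus strand). The PBS arrays lay close together, within the span of the RG@M-γ-CD arrays. The SD was 0.60 in the RG@M-γ-CD group and 0.08 in the PBS group, and the difference was 0.13 (SE 0.31).

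Pdgfd encodes the other protease-activated ligand, which acts on PDGF receptor β. Its values were -1.69, -2.15 and -2.03 against -1.24, -2.47 and -2.26 (chr9:6378717-6378776, plus strand). Here the PBS arrays were the more spread (SD 0.66 against 0.24), with PBS replicate 1 the highest of all. The difference was 0.04 (SE 0.35), and the other probe, at chr9:6376926-6376985, gave -0.07. Within the first row of the slide, where PBS replicate 1 is the only PBS array, Pdgfd was lower in the RG@M-γ-CD group by -0.72.

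Fgf2 encodes basic FGF, a growth factor without a signal peptide that is stored on heparan sulfate. None of its 3 probes was bright enough to be tested under the labels. The probe that spans the intron was well above background on RG@M-γ-CD replicates 2 and 3 and on PBS replicates 1 and 2. It read -5.41, -1.61 and -3.97 in the RG@M-γ-CD group and -3.03, -3.49 and -4.93 in the PBS group. The lowest and the highest value were both in the RG@M-γ-CD group. Without the filter on dim probes the difference was 0.15 (SE 0.98). A change of Fgf2 was therefore not detectable at this signal.

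Fgf7 encodes keratinocyte growth factor, a mesenchymal ligand of the epithelial Fgfr2 isoform. It had 1 probe on the array (chr2:125916134-125916193, plus strand). The values were -0.79, -0.76 and -0.19 on the RG@M-γ-CD arrays and -1.10, -0.44 and -0.34 on the PBS arrays. The lowest array was PBS and the highest RG@M-γ-CD, with the rest interleaved, and the difference was 0.05 (SE 0.28).

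Fgf10 encodes a second mesenchymal ligand of that isoform. It read -3.70, -1.62 and -1.06 in the RG@M-γ-CD group and -2.97, -2.91 and -2.52 in the PBS group (chr13:119580365-119580424, plus strand). Replicates 2 and 3 of RG@M-γ-CD were above all PBS arrays and replicate 1 was below them all. The difference was the largest of the members, 0.68 (SE 0.65, limma adjusted p = 1.0), with a 95% interval from -0.90 to 2.25. The SD was 1.39 in the RG@M-γ-CD group and 0.24 in the PBS group. Its range over the 6 arrays, 2.64, was the widest of the members tested, and 4.36% of all genes had a range at least as wide. The signal was low, between 41.4 and 196 intensity units.

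Fgfr1 encodes a receptor found mainly on mesenchymal cells. Its values were 0.29, 1.68 and 1.40 on the RG@M-γ-CD arrays and 0.55, 0.77 and 0.70 on the PBS arrays (chr8:26685072-26685131, plus strand). The same order of arrays as in Fgf10 was seen in part: RG@M-γ-CD replicate 1 was the lowest array, and replicates 2 and 3 were the highest. The difference was 0.45 (SE 0.36, limma adjusted p = 1.0). The SD was 0.73 in the RG@M-γ-CD group and 0.11 in the PBS group.

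Fgfr2 encodes the receptor whose epithelial isoform binds Fgf7 and Fgf10. It read -1.09, -1.42 and -1.49 in the RG@M-γ-CD group and -1.23, -1.79 and -1.60 in the PBS group (chr7:137307473-137307532, minus strand). PBS replicate 1 lay among the RG@M-γ-CD arrays, and the other PBS arrays lay below them. The difference was 0.21 (SE 0.21), and within the first row of the slide it was -0.10. Only 1 of its 2 probes was measured. Neither probe was assigned to an isoform, and the epithelial and the mesenchymal isoform were not compared.

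Fgfr3 encodes a receptor also found on intestinal epithelium. Its values were 1.05, 2.95 and 2.03 on the RG@M-γ-CD arrays and 1.43, 2.05 and 1.60 on the PBS arrays (chr5:34079649-34079708, plus strand). RG@M-γ-CD replicate 1 was again the lowest array and replicate 2 the highest, while replicate 3 lay just below PBS replicate 2. The difference was 0.32 (SE 0.48), and the probe that spans an exon junction gave 0.30 from values of -4.13, -2.65 and -3.65 against -3.63, -3.69 and -4.02. Both probes placed RG@M-γ-CD replicate 1 lowest and replicate 2 highest.

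**Figure D2:**
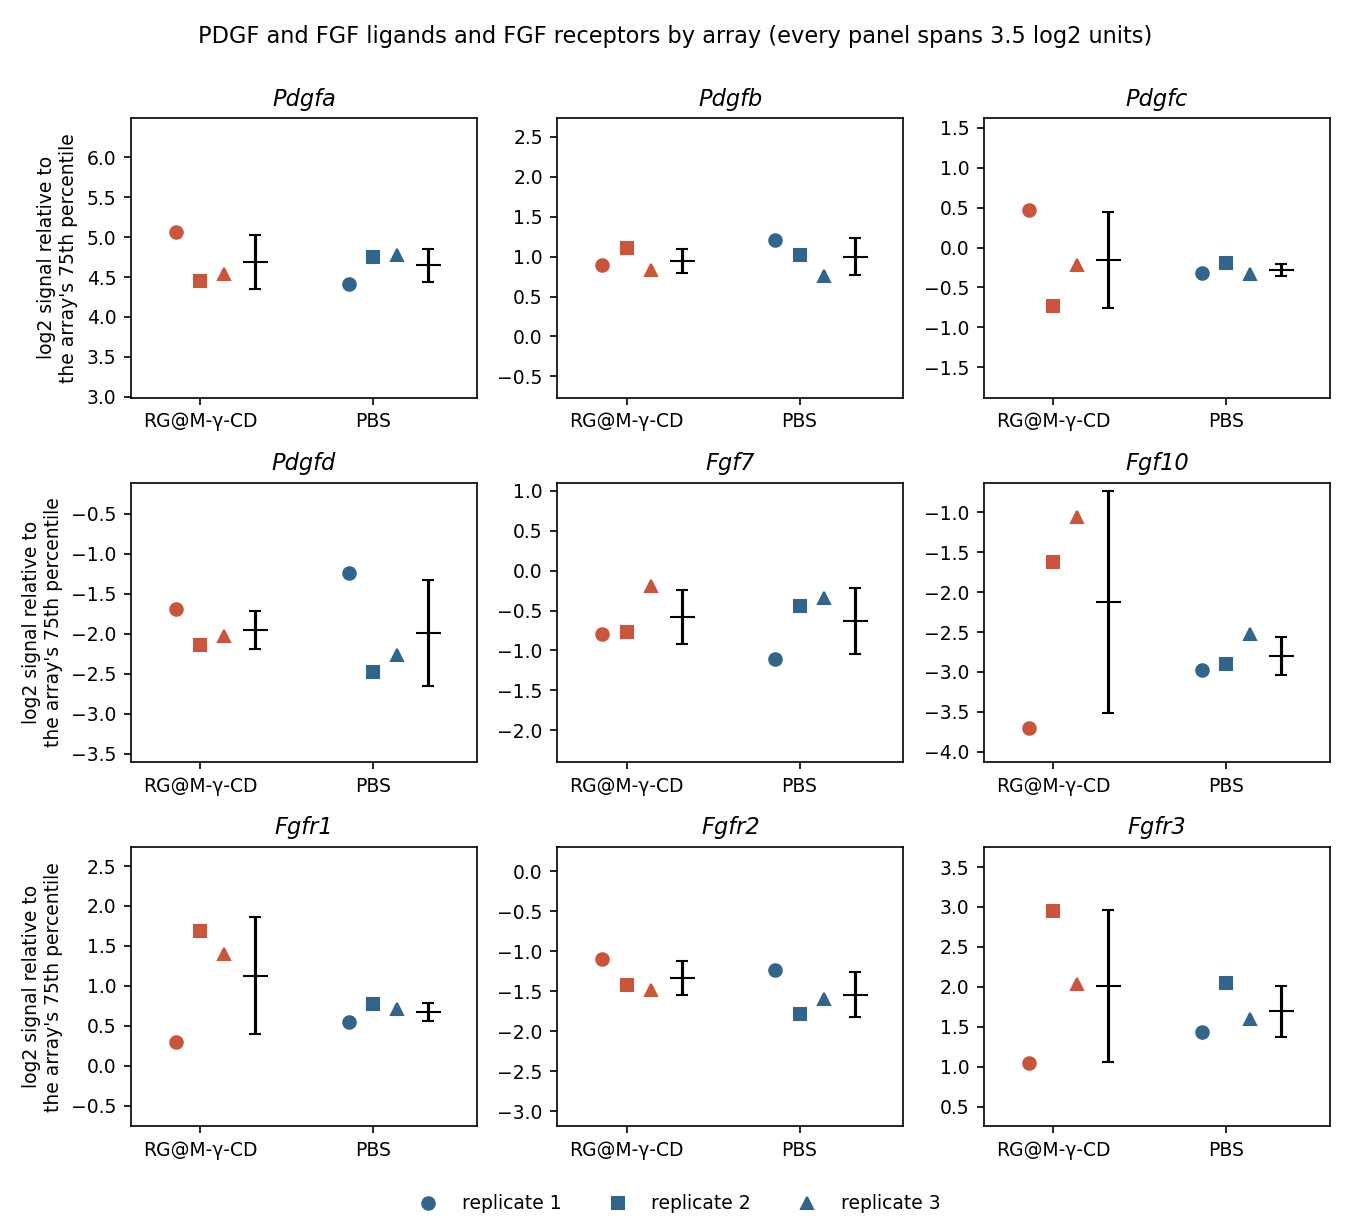
Values of the 9 tested members on each array (y axis, log2 signal relative to the array's 75th percentile), by group (x axis), with replicates as marker shapes and the mean ± SD (n = 3) in black. Each panel spans the same height; the groups overlap in every panel, and RG@M-γ-CD replicate 1 lies below the other 5 arrays for Fgf10, Fgfr1 and Fgfr3.

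As fold differences, the 95% intervals of Pdgfa (0.709 to 1.49), Pdgfb (0.712 to 1.31), Pdgfc, Pdgfd, Fgf7 and Fgfr2 lay within a 2-fold change in either direction. Those of Fgf10 (0.536 to 4.76), Fgfr1 (0.747 to 2.51) and Fgfr3 (0.565 to 2.75) reached above a 2-fold increase. These intervals are not adjusted for the number of genes. The SD was larger in the RG@M-γ-CD group than in the PBS group for 5 of the 9 members (55.6%) and for 66.2% of all genes.

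The arrays within the RG@M-γ-CD group moved members apart. RG@M-γ-CD replicate 1 held the highest value of Pdgfa, Pdgfc and Fgfr2 and the lowest of Fgf10, Fgfr1 and Fgfr3. Without this array, the 4 PDGF ligands were all lower in the RG@M-γ-CD group, by -0.03 to -0.18, and Fgf7, Fgf10 and all 3 FGF receptors were higher. Fgf10 then differed by 1.46 (SE 0.25, limma adjusted p = 0.069) and Fgfr1 by 0.87 (SE 0.18, limma adjusted p = 0.113). The difference of Fgfr3 was 0.80, and that of Fgfr2 was 0.09. In this fit, which rests on 2 arrays against 3, 0 of the 9 members passed an adjusted p of 0.05, while 206 of 19463 genes (1.06%) did. The members with an unadjusted p below 0.05 were Fgf10 and Fgfr1, 2 of 9, against 12.5% of all genes. The same pair did not overlap between groups, against 25.9% of all genes. Fgf2 entered this fit only because it was above background on both remaining RG@M-γ-CD arrays, which favored a difference above 0, and it is not counted here. Leaving out another array of the group lowered the differences of Fgf10 and Fgfr1. Without RG@M-γ-CD replicate 2 the difference was 0.42 for Fgf10, 0.17 for Fgfr1 and -0.15 for Fgfr3. With replicate 3 left out instead, Fgf10 differed by 0.14, Fgfr1 by 0.32 and Fgfr3 by 0.31.

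Under the grouping of the heat map, 6 of the 9 members tested as labelled were higher in the first set and 3 were lower. Pdgfa was lower in the first set, 4.47 ± 0.07 against 4.87 ± 0.17 (SD, n = 3), a difference of -0.40 (SE 0.14, limma adjusted p = 0.297), and it was the only member whose 3 arrays on one side all lay below the 3 on the other. Pdgfc differed by -0.40 and Fgf7 by -0.16. The differences were above 0 for Pdgfb (0.16), Pdgfd (0.34), Fgf10 (1.16), Fgfr1 (0.62), Fgfr2 (0.12) and Fgfr3 (0.57). Fgf2 could be fitted here, at 1.74 (SE 0.71), because the first set holds 3 arrays on which its probe was above background. That favored the first set as the higher side, and Fgf2 is left out of the counts below.

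In that grouping 0 of the 9 members passed an adjusted p of 0.05, and 5 of 19295 genes (0.0259%) did. Pdgfa had an unadjusted p below 0.05, 1 of 9 members, against 16.5% of all genes. Not overlapping was 1 member of 9, against 25.5% of all genes. The members below 0 were 3 of 9, and 63.8% of all genes were below 0. Their median was 0.16, and that of all genes was -0.12.

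**Figure D3:**
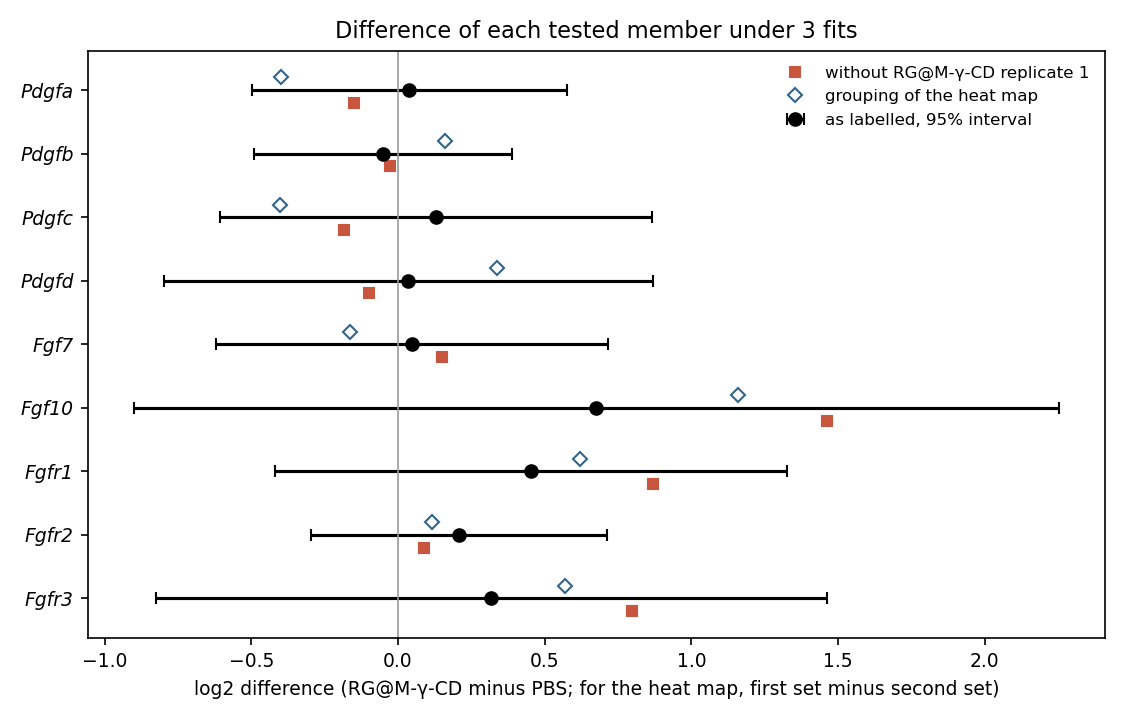
Log2 difference (x axis) of each tested member (y axis): black points with 95% intervals give RG@M-γ-CD minus PBS as labelled, red squares the same without RG@M-γ-CD replicate 1, and open diamonds the first set minus the second set of the heat map. All 9 intervals include 0, and Fgf10 moves from 0.68 to 1.46 when RG@M-γ-CD replicate 1 is left out.

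Markers of other cell types differed between the same arrays. The mean level of the 9 smooth muscle markers tested was 2.61, 5.24 and 5.54 on RG@M-γ-CD replicates 1 to 3 and 3.64, 3.34 and 3.62 on PBS replicates 1 to 3. As in Fgf10, replicates 2 and 3 lay above the PBS arrays and replicate 1 below them. As labelled, all 9 smooth muscle markers tested had a difference above 0, with a median of 0.95, and none passed an unadjusted p of 0.05. The smooth muscle myosin gene Myh11, for example, read 1.26, 4.37 and 4.49 against 2.50, 2.07 and 2.40. Without RG@M-γ-CD replicate 1, 7 of 10 smooth muscle markers passed an adjusted p of 0.05, with a median of 1.76. These 10 include Lmod1, which failed the filter as labelled. It passed here only through the 2 remaining RG@M-γ-CD arrays, its higher side, so the filter favored its direction. In the heat map grouping all 9 markers tested as labelled had an unadjusted p below 0.05, with differences from 1.31 to 1.88. Lmod1 passed the filter there only through the first set, its higher side, and is left out. The summed level of the list, as log2, ranged from 6.78 to 9.71 in the RG@M-γ-CD group and from 7.69 to 7.90 in the PBS group, and its defining genes Acta2, Myh11, Des and Actg2 were above background on every array. The part of smooth muscle in the values of Fgf10, Fgfr1 and Fgfr3 was not tested.

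The mean level of the 10 fibroblast markers was lowest on RG@M-γ-CD replicate 1 (1.72) and highest on replicates 2 and 3 (2.93 and 2.70), with PBS arrays between 2.18 and 2.40. Their summed level ranged from 6.60 to 7.38 in the RG@M-γ-CD group and from 6.97 to 7.05 in the PBS group, and all 10 were above background. Macrophage markers ran the other way, at 2.38, 1.31 and 1.34 against 2.25, 2.01 and 2.25. Pdgfa had its 3 lowest values on RG@M-γ-CD replicates 2 and 3 and PBS replicate 1. On PBS replicate 1, where Pdgfa was lowest, the macrophage level was among the higher ones (2.25). Of the 9 macrophage markers tested all had a difference below 0 as labelled, with a median of -0.47, and 1 had an unadjusted p below 0.05. The summed level of that list ranged from 6.07 to 7.44 in the RG@M-γ-CD group and from 7.22 to 7.41 in the PBS group. Of the endothelial markers, 10 of 10 tested were above 0 as labelled (median 0.34), and of the pericyte markers 5 of 7 (median 0.20). Of the 5 squamous markers tested 4 were below 0 (median -0.52), and 1 of 2 adipocyte markers was above 0. Below 0 were also 2 of 2 platelet markers (median -1.31) and 3 of the 4 pancreas genes (median -1.30). Of these, Ppbp (platelet), Prss2 and Ctrb1 (pancreas) passed the filter only through the PBS group, their higher side, which favored a difference below 0. The other platelet marker, Pf4, differed by -0.48, and the other pancreas genes, Clps and Cela1, by -0.44 and 0.17. Platelet markers lay highest on PBS replicate 2 (0.19) and lowest on RG@M-γ-CD replicate 2 (-2.61). The part of any of these cell types in the members' values was not tested.

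**Figure D4:**
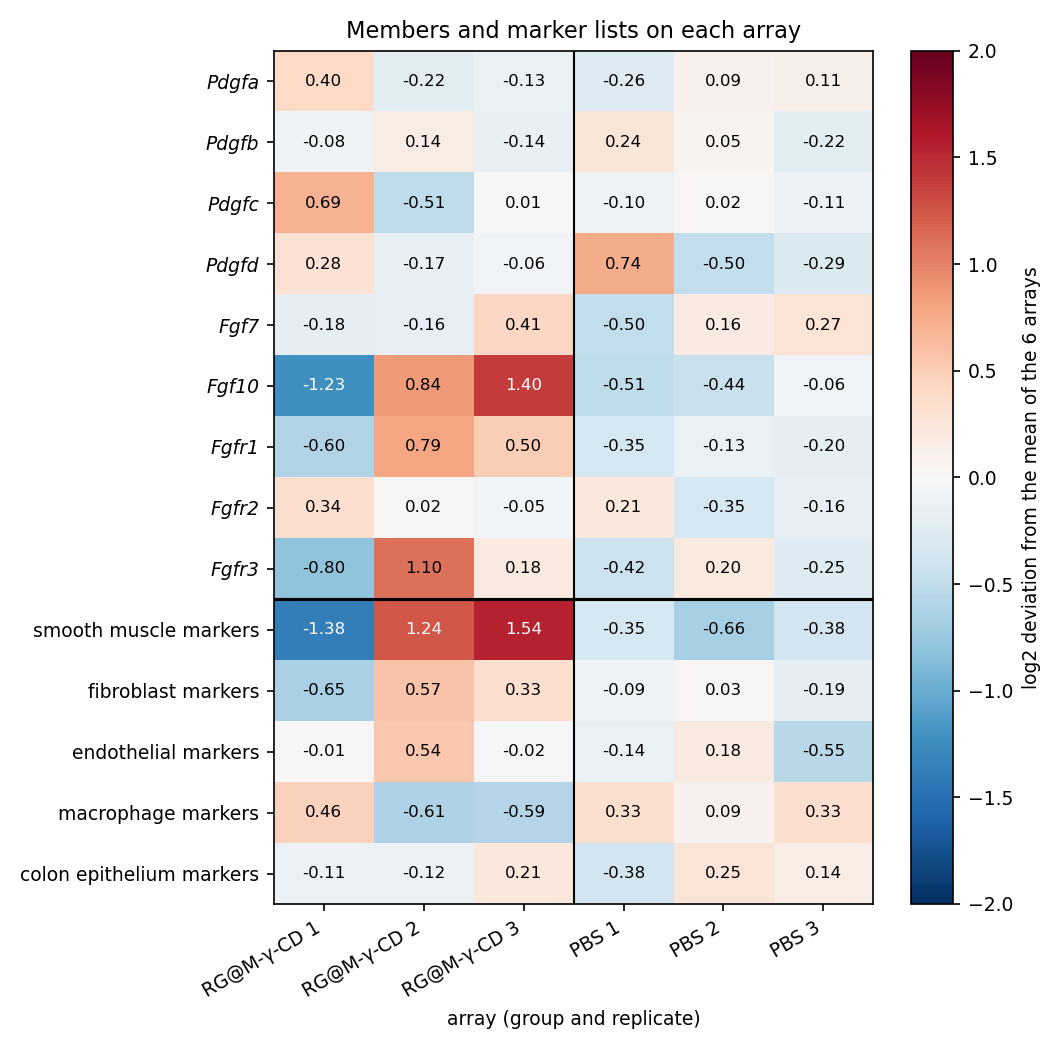
Deviation of each array (x axis) from the mean of the 6 arrays, in log2 units (color and printed value), for the 9 tested members and, below the line, for the mean level of 5 marker lists. Fgf10 reads -1.23, 0.84 and 1.40 on the RG@M-γ-CD arrays, and the smooth muscle list reads -1.38, 1.24 and 1.54.

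Fgf10 had the widest range of the members tested. The genes most like it were therefore sought by Pearson's r over the 6 arrays among the other 19086 genes tested. These were Plod2, a collagen lysyl hydroxylase (r = 0.999), Rcn3, a calcium-binding protein of the endoplasmic reticulum (r = 0.998), and Nxph3, a neurexophilin (r = 0.994). The values describe 6 arrays that share 1 slide, on which RG@M-γ-CD replicates 2 and 3 hold the highest Fgf10 values. With so few arrays and so many genes to pick from, the search itself yields high values of r. Shared regulation with Fgf10 was not tested.

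Of 78 further genes of the pathway, 62 could be tested. As labelled, 33 were above 0 and 29 below, with a median of 0.01 beside -0.01 for all genes, and 0 had an unadjusted p below 0.05. The PDGF receptor genes had differences of -0.26 for Pdgfra (SE 0.23) and -0.10 for Pdgfrb (SE 0.20), and the receptor-like gene Pdgfrl had -0.42 (SE 0.74). Fgfr4, the FGF receptor of bile acid control, differed by -0.02 (SE 0.22), and Fgfrl1, a receptor without a kinase domain, by -0.31 (SE 0.54). The FGF co-receptor gene Klb had the largest difference of the 62, 1.02 (SE 0.57, limma adjusted p = 1.0). Other FGF ligands were measured less often, with 8 of 19 tested, 6 above 0 and 2 below. Of the 15 feedback inhibitors and target genes tested, 9 were above 0 and 6 below. The groups did not overlap for 1 of the 62 genes (1.61%), the early response gene Ier2, below the 4.57% of all genes.

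In the grouping of the heat map, 61 of these genes could again be tested, 26 above 0 and 35 below. Of them 11 (18%) had an unadjusted p below 0.05, against 16.5% of all genes, 13 (21.3%) did not overlap, against 25.5% of all genes, and 0 passed an adjusted p of 0.05. These shares are near those of all genes. The 11 were Fgf18 (1.34), Fgf11 (0.56), Cspg4 (0.97), Sdc3 (0.84), Etv1 (1.22) and Fos (0.95) above 0, and Sulf2 (-1.23), Hs2st1 (-0.74), Sdc1 (-0.64), Plau (-0.65) and Spred1 (-0.39) below. Flrt1 failed the filter as labelled and passed it here through the set in which it is high, so it is not counted. Pdgfra lay at -0.40 and Pdgfrl at -1.21, and neither overlapped between the sets.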

How the data were processed

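RNA of colon tissue with tumors from 6 mice was measured on 1 one-color Agilent array per mouse. The deposited intensity values were made by the authors with Feature Extraction 10.7.1.1, which subtracts the background and detrends each spot. The deposited table of log2 values, which the authors had normalized, served as an alternative.

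Samples were grouped by their labels. In R 4.3.3 with limma 3.58.1, control spots and 790 outlier spots were left out, spots of a probe were averaged, and the 75th percentile was subtracted. For 58.3% of the probes the symbol came through the accession from RefSeq. A probe counted as detected on an array when 0.5 or more of its spots were well above background, it was tested when detected on every array of 1 or both groups, and the brightest probe stood for its gene. Probes left with no value on an array (7) were dropped. Groups were compared by lmFit and eBayes with Benjamini-Hochberg adjustment (threshold 0.05). The settings tried were quantile and normexp (offset 50) processing, the deposited table, other filters, the mean of probes, outliers kept, blocks for replicate number and slide row, the methods' t-test, the heat map grouping and each array left out.

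On simulated data with 200 of 19087 genes changed by 2 on the log2 scale, 69% were recovered and 3 others called. The simulated noise was independent between genes and arrays, without differences that many genes of an array share. The planted change also exceeded every member's difference as labelled, so the 69% does not carry over to the members. The number of arrays limits the precision. Members, lists and the rule for named genes were chosen with earlier results of these data known. The rule named all members, the receptors Pdgfra, Pdgfrb, Fgfr4 and Fgfrl1, and pathway genes with an unadjusted p under 0.05. It also named the 3 genes most like the tested member with the widest range. Ier2, Klb, Pdgfrl, the pathway genes of the heat map grouping, and the marker genes named singly were chosen after their values were seen.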

Additional observations from a re-analysis of the deposited data

How the results depend on the processing

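No member passed an adjusted p of 0.05 in any of the 17 alternative fits. Fgf10 and Fgfr1 were higher in the RG@M-γ-CD group, or in the first set, in every one, and Fgf10 fell between 0.14 and 1.46. The sign of small differences changed with the setting. Pdgfd was -0.038 after normexp background correction, -0.018 with the mean of its probes and -0.72 with the slide row as a block, under which Fgfr2 was -0.10. In the heat map grouping Pdgfa was -0.40, Pdgfb 0.16, Pdgfc -0.40 and Fgf7 -0.16. The cause was not tested. Leaving out each array in turn moved Pdgfa between -0.15 and 0.16, Pdgfb between -0.17 and 0.057, Pdgfc between -0.18 and 0.41, Pdgfd between -0.21 and 0.41, Fgf7 between -0.19 and 0.19, and Fgfr3 between -0.15 and 0.80, so the sign of each rests on single arrays. The labels do not say whether the replicate numbers pair the mice. The deviations of same-numbered arrays correlated at -0.25, -0.23 and 0.14, which cannot settle it. With the replicate number as a block, 0 members passed and their median difference stayed 0.13, while 463 genes had an unadjusted p below 0.05, against 419. The slide row block compares the RG@M-γ-CD arrays with PBS replicate 1 alone. With it, 1 of the 9 members tested had an unadjusted p below 0.05, as did 560 of 19087 genes. The methods' t-test passed 0 genes after adjustment and 381 at an unadjusted p of 0.05. Fgf2 was well above background on 4 of the 6 arrays and could not be tested as labelled.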
